A study of Mus musculus with 12 samples.

Results

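The genes described here encode the coats, tethers, cargo receptors and small GTPases that move proteins from the endoplasmic reticulum (ER) through the Golgi apparatus. They were picked out by matching gene symbols: COPI coat subunits (Cop), Sec genes numbered in the 10s, 20s, 30s and 60s, Tmed cargo receptors, golgins (Golg), Golph3, Gorasp, Trappc and Cog tether subunits, Arf GTPases with their Arfgap and Arfgef regulators, and Gbf1. The rule matched 87 of the 12208 genes in the count table, and all 87 passed the filter on low counts that left 12027 genes tested. Transcripts were counted by 3′ tag sequencing in 393P, a mouse lung cancer cell line labelled epithelial and non-metastatic. The 4 lines compared are all 393P and all untreated: a GFP vector control, a line carrying wild-type Zeb1 (WT), and lines carrying the Zeb1 forms labelled deficient and mimetic. The series title concerns acetylation of the Zeb1 protein, so the terms deficient and mimetic are taken to refer to acetylation of Zeb1 and not to its loss. The labels give 3 biological replicates, 1 library each, per line, where the design text speaks of 2. With 1 line per Zeb1 form, a difference between lines cannot be told apart from other differences between those cultures.

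Proteins enter the secretory pathway through the Sec61 channel and leave the ER in vesicles with a COPII coat, whose inner layer is Sec23 with Sec24 and whose outer layer is Sec13 with Sec31. COPI coats, recruited by ARF GTPases, return cargo receptors and resident proteins from the Golgi, and tethers such as the golgins, COG and TRAPP complexes catch arriving vesicles. Zeb1 is a zinc-finger repressor of epithelial genes that binds E-box sequences, and in lung cancer cells it has been linked to altered Golgi organisation and secretion.

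Libraries held 24.4 to 39 M counts, and the members took 0.753 to 0.764%, 0.700 to 0.706%, 0.718 to 0.724% and 0.721 to 0.726% of the counts in the vector, WT, deficient and mimetic lines. Levels are given as CPM, counts relative to library size after TMM scaling, and with 3′ tags they do not scale with transcript length. Mean Zeb1 levels in the vector, WT, deficient and mimetic lines were 31.3 ± 2.79, 244 ± 6.87, 484 ± 13.1 and 228 ± 12.2 CPM (SD, n = 3). The 7 of 9 epithelial markers in the table summed to 9683 to 11112, 4499 to 4643, 8441 to 8576 and 5944 to 6096 CPM in the same order of lines, and the 7 of 7 mesenchymal markers to 5893 to 6459, 7041 to 7349, 5525 to 5771 and 6156 to 6386 CPM. Vim made up most of the latter sum and was lower in deficient than in vector (3940 against 5356 CPM), whereas Fn1 (835 against 509), Sparc (312 against 205), Zeb2 (58.8 against 45.7) and Twist1 (3.76 against 0.495) had higher means in deficient. Of markers of other cells, 1 of 4 leukocyte, 2 of 3 endothelial and 3 of 5 fibroblast genes were in the table, and each set summed to at most 8.43 CPM in any library. Whether the epithelial state of a line had a part in the results below was not tested. Vector replicate 3 and deficient replicate 3 stood apart from their groups, with a mean chi-square per gene of 13.7 and 21.2, and of 17.1 and 23.6, against the other replicates, where all other pairs within a line had 2.96 to 6.23.

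Most of the machinery differed little in level between lines. Over the 4 lines, the highest line mean of a member was a median of 1.29 times its lowest; 69 of 87 members stayed under 1.5-fold, 18 reached 1.5-fold and 6 reached 2-fold. Mean levels ran from 0.23 to 422 CPM, with a median of 58.5 CPM against 32.8 CPM over all genes tested. Vector had the highest mean for 41 members and WT the lowest for 33. All 3 vector libraries lay above the other 9 libraries for 27 members and below them for 13, and all 3 WT libraries lay above the others for 13 and below for 18. Deficient stood apart in this way for 4 members and mimetic for 2. Such line orders were counted for the members only, so no share over all genes can be set beside them.

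**Figure D1:**
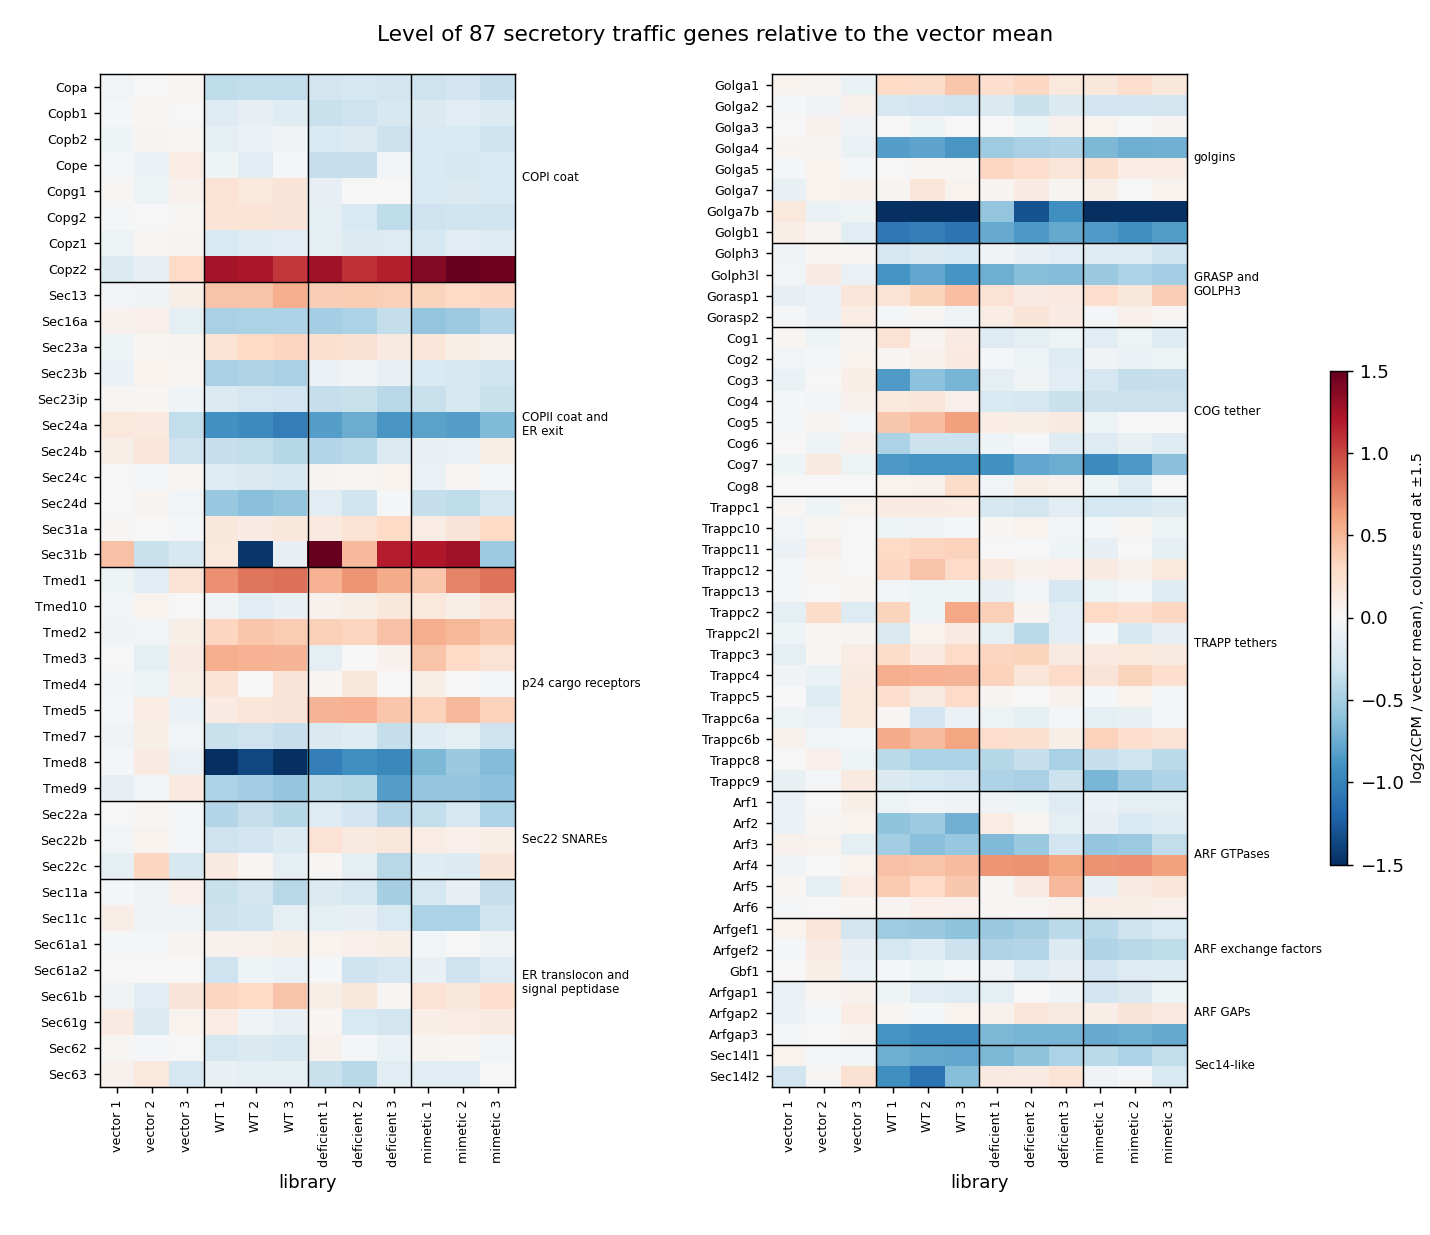
Level of each of the 87 genes (rows, grouped by role) in each of the 12 libraries (columns), as log2 of CPM over the mean of the vector libraries; red is above and blue below the vector mean, and colours end at ±1.5. Copz2, Arf4 and Tmed1 are red and Golgb1, Golga4, Arfgap3, Sec24a and Cog7 are blue in all 9 libraries of the Zeb1 lines.

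A gene was called when its adjusted p was under 0.05 (edgeR quasi-likelihood test, Benjamini-Hochberg over all genes tested), and "rose" and "fell" are used only of calls. In WT against vector 23 members rose and 36 fell, where 31% of all genes tested rose and 33.6% fell (64.6% in either direction). In deficient against vector 16 rose and 34 fell (28.4% and 29.8% of all genes, 58.2% in either direction), and in mimetic against vector 16 rose and 40 fell (28.6% and 30.9% of all genes, 59.5% in either direction). These 3 comparisons share the vector libraries. Without vector replicate 3 the counts were 24 higher and 37 lower in WT, 20 and 34 in deficient, and 18 and 37 in mimetic, and without deficient replicate 3 they were 15 and 34 in deficient. In percentages of the members, the falls were 41.4, 39.1 and 46.0%, above the share of all genes in each comparison, and the rises were 26.4, 18.4 and 18.4%, below it. Among genes with a mean of at least 10 CPM, 41.8, 40.5 and 48.1% of 79 members fell, against 35.9, 35 and 35.8% of 8860 genes. At that level 27.8, 19 and 19% of members rose, against 33.8, 28.6 and 29% of genes. The median log2 fold change of the members was -0.08, -0.09 and -0.11, where that of all genes was -0.01 in WT and 0 to 2 decimals in the other lines. Most changes were small: at 1.5-fold or more 2 members rose and 13 fell in WT (9.87% and 13.8% of all genes), 2 rose and 8 fell in deficient (9.77% and 7.84%), and 3 rose and 8 fell in mimetic (9.73% and 9.53%).

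The Zeb1 lines were also compared with each other. In mimetic against deficient 3 members rose and 8 fell, where 12.6% of all genes rose and 14.9% fell. That is 12.6% of members called in either direction against 27.4% of all genes, although members are expressed above the average level; among genes with a mean of at least 10 CPM, 3 of 79 members rose and 7 fell, against 14.1% and 16.6% of 8860 genes. In mimetic against WT 21 rose and 20 fell (23.1% and 21.8% of all genes, 44.9% in either direction; 27 and 12 members without TMM factors), and in deficient against WT 24 rose and 17 fell (27.5% and 26.3% of all genes, 53.8% in either direction; 22 and 20 members without deficient replicate 3). At 1.5-fold or more no member rose and 1 fell in mimetic against deficient (2.2% and 3.72% of all genes), 2 rose in mimetic against WT (8.21% of all genes) and 6 rose in deficient against WT (11.6%), with 0 falls in either, where 2.36% and 4.11% of all genes fell by that much.

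**Figure D2:**
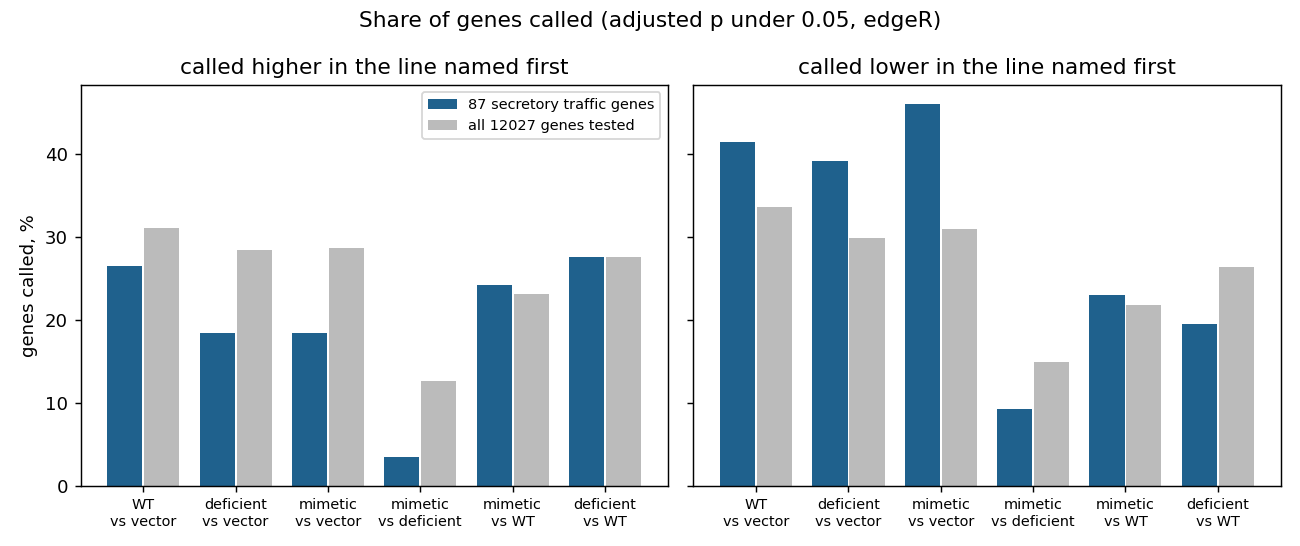
Percentage of genes called higher (left) and lower (right) in the line named first, for the 87 members (blue bars) and all 12027 genes tested (grey bars), in each of the 6 comparisons. The blue bars for lower calls stand above the grey ones in the 3 comparisons with vector, and both blue bars are below the grey ones in mimetic against deficient.

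The COPI coat forms retrograde vesicles at the Golgi, and each of its 8 matched subunits but Copz2 was lower in mimetic cells. The subunit Arcn1 does not match the rule and is counted with the other coat and cargo genes below. In mimetic against vector 7 of the 8 matched subunits fell and 1 rose, in deficient 6 fell and 1 rose, and in WT 3 fell and 3 rose. Of all genes tested, 30.9% fell and 28.6% rose in mimetic, 29.8% and 28.4% in deficient, and 33.6% and 31% in WT. Copa, the largest subunit, was at 393, 405 and 411 CPM in the vector libraries, 309, 312 and 313 in WT, 332, 336 and 332 in deficient and 324, 332 and 317 in mimetic. All 9 libraries of the Zeb1 lines lay below all vector libraries, and Copa fell 1.29-fold in WT (adjusted p = 2.05e-08), 1.21-fold in deficient (2.02e-06) and 1.24-fold in mimetic (3.00e-07). The γ subunits Copg1 and Copg2 were higher in WT than in vector. Copg1 was at 174, 164 and 180 CPM in vector, 201, 192 and 198 in WT, 158, 173 and 174 in deficient and 148, 148 and 147 in mimetic, and Copg2 at 61.6, 62.1 and 62.7, then 71.6, 71.8 and 71.0, then 56.7, 53.1 and 47.8, then 49.96, 50.7 and 50.4 CPM. For both genes WT was the highest line and mimetic the lowest or level with deficient, so that Copg1 was 1.33-fold (adjusted p = 3.86e-07) and Copg2 1.42-fold (5.13e-07) lower in mimetic than in WT. Both genes lie on chromosome 6, whose all-gene median log2 change was 0.21 in WT against vector and -0.21 in mimetic against WT. With that median subtracted, the WT change was -0.02 for Copg1 and -0.01 for Copg2, and the change in mimetic against WT was -0.21 and -0.30; the part of the chromosome was not tested. The summed level of the 8 matched subunits was 1383 ± 32.4, 1268 ± 14.2, 1186 ± 7.08 and 1162 ± 18.9 CPM in the vector, WT, deficient and mimetic lines (SD, n = 3).

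Copz2, the second form of the ζ subunit, went the other way and showed the largest rise of any member against vector. It was at 2.18, 2.31 and 3.06 CPM in vector, 5.96, 5.83 and 5.23 in WT, 6.0, 5.37 and 5.65 in deficient and 6.54, 8.62 and 6.94 in mimetic. No library of a Zeb1 line overlapped the vector libraries, and all mimetic libraries lay above all others. The rise was 2.24-fold in WT (log2 1.17, SE 0.16, adjusted p = 1.96e-06), 2.24-fold in deficient (1.16, SE 0.16, 2.52e-06) and 2.91-fold in mimetic (1.54, SE 0.16, 4.34e-08). Mimetic exceeded WT by 1.30-fold (adjusted p = 0.0408), a call that was lost when any of mimetic replicates 2 and 3 or WT replicates 1, 2 and 3 was left out (adjusted p = 0.0522 to 0.224). Copz1, the common form, fell in each Zeb1 line, so that Copz2 made up 1.76, 4.43, 4.39 and 5.73% of the 2 forms' counts in the vector, WT, deficient and mimetic lines.

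The COPII coat and ER exit genes included rises of Sec13 and Sec31a in all Zeb1 lines and falls of all 4 Sec24 genes in WT. Of 11 members 3 rose and 7 fell in WT, 3 rose and 5 fell in deficient, and 2 rose and 5 fell in mimetic, all against vector, and their summed level went from 960 ± 28.7 CPM with vector to 879 ± 7.76, 924 ± 15.7 and 896 ± 20.5 CPM with WT, deficient and mimetic Zeb1 (SD, n = 3). The shares of all genes that rose and fell were 31% and 33.6% in WT, 28.4% and 29.8% in deficient, and 28.6% and 30.9% in mimetic. Sec13, of the outer cage, rose 1.38-fold in WT (adjusted p = 2.79e-08), 1.29-fold in deficient (1.21e-06) and 1.24-fold in mimetic (9.04e-06), with 109 to 121 CPM in vector and 140 to 167 CPM in the other lines. Its partner Sec31a rose 1.11-fold in WT (adjusted p = 0.00957), 1.16-fold in deficient (6.30e-04) and 1.15-fold in mimetic (0.00134). Chromosome 5, which carries Sec31a, had an all-gene median log2 change of 0.138, 0.254 and 0.282 in the same order. With that median subtracted, Sec31a was at 0.014, -0.035 and -0.081. After the same step Sec13, on chromosome 6, was at 0.261, 0.28 and 0.317. The part of the chromosome was not tested. Sec16a, the scaffold of ER exit sites, fell 1.39-fold in WT (adjusted p = 4.70e-07), 1.36-fold in deficient (1.38e-06) and 1.44-fold in mimetic (1.40e-07).

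Sec24 proteins choose the cargo of COPII vesicles. Sec24a was at 55.0, 54.4 and 38.1 CPM in vector, 26.2, 25.4 and 24 in WT, 27.7, 29.3 and 27.0 in deficient and 28.2, 27.7 and 31 in mimetic. Vector replicate 3 was below the other vector libraries but above every library of the Zeb1 lines. Sec24a fell 1.95-fold in WT (log2 -0.96, SE 0.10, adjusted p = 6.52e-08), 1.75-fold in deficient (-0.81, SE 0.10, 8.93e-07) and 1.69-fold in mimetic (-0.76, SE 0.10, 2.12e-06). Sec24d was lowest in WT, at 37.1, 35.6 and 36.5 CPM against 54.8, 56.7 and 53.3 in vector, 49.0, 44.7 and 53.6 in deficient and 43.0, 42.1 and 45.6 in mimetic. It fell 1.51-fold in WT (adjusted p = 9.68e-08) and was 1.35-fold higher in deficient than in WT (1.31e-05). Sec31b was near the detection limit, at 0.0566 to 0.513 CPM, and its higher level in deficient than in WT (2.95-fold, adjusted p = 0.0423) was lost under DESeq2 (0.0738) and when deficient replicate 1 or 3 or WT replicate 2 or 3 was left out (0.0681 to 0.172).

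Sec23a and Sec23b, interchangeable GTPase-activating subunits of the inner coat, moved in opposite directions in WT. Sec23a was at 77.2, 82.1 and 82.7 CPM in vector and 93, 99.2 and 101 in WT, and Sec23b at 87.6, 96.9 and 95.5 in vector and 66.4, 68.3 and 66.8 in WT. The first rose 1.21-fold (adjusted p = 7.93e-05) and the second fell 1.39-fold (3.93e-08), and for neither gene did the groups overlap. The all-gene median log2 change was 0.188 on chromosome 12, which carries Sec23a, and -0.006 on chromosome 2, which carries Sec23b. With these medians subtracted, the log2 change in WT was 0.089 for Sec23a and -0.468 for Sec23b. In deficient cells Sec23b was at 86.4 to 89.7 CPM, which overlapped vector, and in mimetic cells at 75.8 to 79.5 CPM, 1.13-fold lower than in deficient (adjusted p = 0.00873).

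The p24 cargo receptors sort proteins into COPI and COPII vesicles as mixed oligomers, and they moved in both directions. Against vector 4 of 9 Tmed genes rose and 3 fell in WT, 3 rose and 3 fell in deficient, and 5 rose and 3 fell in mimetic, and their summed level was 538 ± 16.2, 522 ± 3.46, 540 ± 16.2 and 552 ± 13.2 CPM in the vector, WT, deficient and mimetic lines (SD, n = 3). Over all genes, 31% rose and 33.6% fell in WT, 28.4% and 29.8% in deficient, and 28.6% and 30.9% in mimetic. Tmed1 rose from 9.56, 9.01 and 11.8 CPM in vector to 16.2, 17.6 and 17.9 in WT, 14.5, 16 and 14.8 in deficient and 13.5, 16.9 and 17.7 in mimetic, without overlap with vector. Tmed2, the β-type p24 protein, rose 1.29-fold in WT (adjusted p = 2.38e-05), 1.30-fold in deficient (2.32e-05) and 1.40-fold in mimetic (9.55e-07). Tmed9 fell 1.44-fold in WT (adjusted p = 1.91e-05), 1.45-fold in deficient (1.78e-05) and 1.51-fold in mimetic (5.51e-06).

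Tmed3 separated the 2 mutant lines. It was at 41.8, 38 and 45.3 CPM in vector, 61.0, 59.9 and 59.5 in WT, 38, 41.5 and 43.5 in deficient and 56.1, 51.2 and 48.5 in mimetic. Deficient overlapped vector, and mimetic lay between deficient and WT without overlapping either. It was 1.27-fold higher in mimetic than in deficient (log2 0.34, SE 0.07, adjusted p = 0.00122) and 1.16-fold lower in mimetic than in WT (0.0184). Tmed8 carries the GOLD domain of the family but is not one of the classical p24 proteins. It was at 10.1, 11.2 and 9.64 CPM in vector, 2.88, 3.99 and 3.10 in WT, 5.07, 5.43 and 5.29 in deficient and 6.46, 7.02 and 6.55 in mimetic. The libraries of the 4 lines did not overlap, with WT lowest, then deficient, mimetic and vector. The fall was 3.08-fold in WT (log2 -1.62, SE 0.13, adjusted p = 1.25e-09), 1.96-fold in deficient (-0.97, SE 0.13, 1.34e-06) and 1.54-fold in mimetic (-0.63, SE 0.12, 2.10e-04), and mimetic was 1.99-fold above WT (7.38e-06). The difference between mimetic and deficient was log2 0.34 (SE 0.13, adjusted p = 0.0582).

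**Figure D3:**
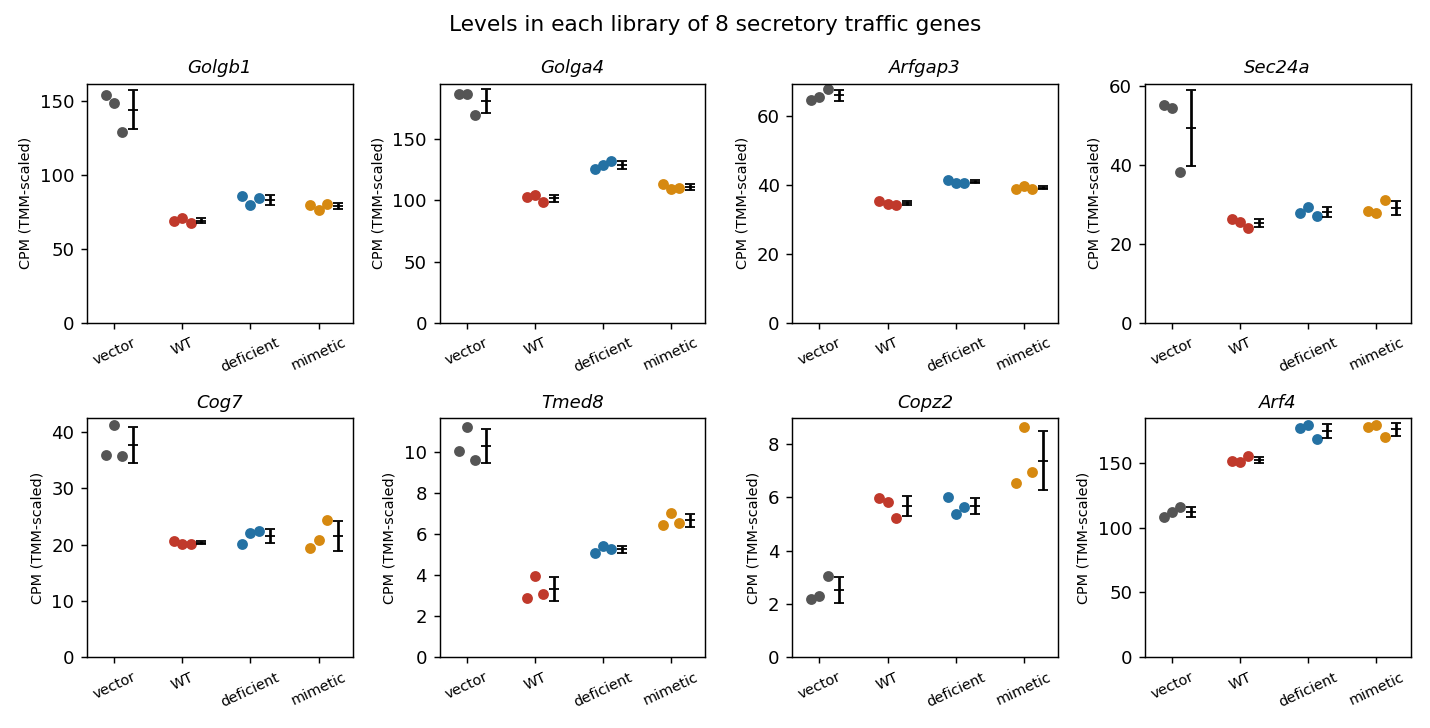
CPM of 8 members in each library (points, coloured by line), with the mean and SD of the 3 libraries of each line beside them (bars); axes start at 0. In each panel the 9 libraries of the Zeb1 lines lie on one side of the 3 vector libraries, above them for Copz2 and Arf4 and below them for the other 6 genes.

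Of the 3 Sec22 genes, Sec22b, a SNARE that acts in fusion between ER and Golgi membranes, was highest in deficient. It was at 63.1, 67.0 and 63.9 CPM in vector, 52.2, 53.2 and 56.2 in WT, 74.9, 71.0 and 73.1 in deficient and 70.0, 68.3 and 69.3 in mimetic. It fell 1.20-fold in WT (adjusted p = 1.19e-04) and rose 1.13-fold in deficient (0.00509), and mimetic did not pass the test (1.07-fold above vector, 0.103). The translocon and signal peptidase genes changed little: 1 of 8 rose and 3 fell in WT, 0 rose and 2 fell in deficient, and 1 rose and 2 fell in mimetic. Across all genes the rises and falls were 31% and 33.6% in WT, 28.4% and 29.8% in deficient, and 28.6% and 30.9% in mimetic. Sec61b, a small channel subunit, rose 1.27-fold in WT (adjusted p = 3.90e-04) and 1.16-fold in mimetic (0.0184), Sec62 fell 1.18-fold in WT (7.99e-05), and the catalytic peptidase subunit Sec11a fell 1.26-fold in WT (3.17e-04), 1.24-fold in deficient (8.03e-04) and 1.18-fold in mimetic (0.00637). Sec61a1, the channel itself, stayed between 260 and 288 CPM in all 12 libraries. Chromosome 7, which carries Sec11a, had an all-gene median log2 change of -0.233, -0.236 and -0.168 in WT, deficient and mimetic. With that median subtracted, Sec11a was at -0.105, -0.077 and -0.074. In WT the median was -0.185 on chromosome 3, which left Sec62 at -0.056 and Sec22b at -0.079. Sec61b, on chromosome 4 (median 0.165 in WT), was left at 0.181. The part of the chromosome was not tested.

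The golgins are long coiled-coil proteins that catch vesicles at the Golgi surface, and Golgb1 and Golga4 had the smallest adjusted p of all members in WT against vector. Of 8 genes named Golg, 1 rose and 4 fell in WT, and 2 rose and 4 fell in each of deficient and mimetic. Among all genes tested, 31% rose and 33.6% fell in WT, 28.4% and 29.8% in deficient, and 28.6% and 30.9% in mimetic. Golgb1, giantin, which tethers COPI vesicles, was at 154, 148 and 129 CPM in vector, 68.7, 70.8 and 67.4 in WT, 85.3, 79.2 and 84.3 in deficient and 79.6, 76.3 and 80.5 in mimetic. It fell 2.09-fold in WT (log2 -1.06, SE 0.06, adjusted p = 2.00e-12), 1.73-fold in deficient (-0.79, SE 0.06, 3.00e-10) and 1.82-fold in mimetic (-0.87, SE 0.06, 7.06e-11). WT lay below both mutant lines without overlap, and deficient was 1.20-fold above WT (adjusted p = 7.08e-04).

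Golga4, golgin-245 of the trans-Golgi network, was at 187, 187 and 170 CPM in vector, 103, 104 and 98.7 in WT, 126, 129 and 132 in deficient and 114, 109 and 110 in mimetic. None of the 4 lines overlapped, in the order WT, mimetic, deficient and vector. It fell 1.78-fold in WT (log2 -0.83, SE 0.05, adjusted p = 2.64e-12), 1.40-fold in deficient (-0.49, SE 0.05, 1.41e-08) and 1.63-fold in mimetic (-0.71, SE 0.05, 4.99e-11), and was 1.16-fold lower in mimetic than in deficient (-0.22, SE 0.05, 0.00142). Golga2, the cis-Golgi golgin GM130, fell 1.22-fold in WT (adjusted p = 1.44e-05), 1.19-fold in deficient (5.98e-05) and 1.21-fold in mimetic (1.89e-05). Golga1, golgin-97, rose 1.26-fold in WT (adjusted p = 9.78e-05), 1.18-fold in deficient (0.00231) and 1.15-fold in mimetic (0.00831). Golga7b, which despite its name is known as an accessory protein of a palmitoyltransferase, was scarce, at 1.88 to 2.24 CPM in vector, 0.356 to 0.679 in WT, 0.807 to 1.33 in deficient and 0.496 to 0.598 in mimetic. It fell 3.63-fold in WT (adjusted p = 2.01e-05), 1.88-fold in deficient (0.00809) and 3.62-fold in mimetic (3.31e-05), and its 1.93-fold lower level in mimetic than in deficient (0.0394) was lost without any of 5 libraries (deficient replicates 1 and 3 and mimetic replicates 1, 2 and 3, 0.0703 to 0.159), under limma-voom (0.0704) and in a fit of the 2 lines alone (0.0569). It was also 1.94-fold higher in deficient than in WT (adjusted p = 0.0179), which was lost without deficient replicate 1 (0.0931) or WT replicate 3 (0.091).

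Golph3 and Golph3l bind phosphatidylinositol 4-phosphate at the trans-Golgi and shape the retention of Golgi enzymes and vesicle exit. Golph3l was at 49.96, 55.8 and 47.9 CPM in vector, 27.5, 29.9 and 27.8 in WT, 30.8, 33.0 and 32.6 in deficient and 34.9, 37.0 and 36.1 in mimetic, so that no 2 lines overlapped and the order was WT, deficient, mimetic and vector. It fell 1.80-fold in WT (adjusted p = 7.72e-10), 1.59-fold in deficient (3.35e-08) and 1.42-fold in mimetic (1.57e-06). Golph3, the more abundant form, fell 1.17-fold in WT (adjusted p = 1.36e-04) and 1.17-fold in mimetic (1.49e-04). In deficient it fell 1.07-fold (adjusted p = 0.0494), a call that was lost in 10 of 14 alternatives, among them those without deficient replicate 2 or 3 or vector replicate 2 or 3 (0.0923 to 0.157). Gorasp1, a stacking protein of the cis-Golgi, rose 1.26-fold in WT (adjusted p = 0.00627) and 1.20-fold in mimetic (0.0284), the latter lost without mimetic replicate 1 or 3 or vector replicate 1 or 2 (0.0561 to 0.12). Gorasp2, its counterpart, was highest in deficient, at 175, 185 and 177 CPM against 152 to 175 in vector, a rise of 1.11-fold (adjusted p = 0.016) that was lost without deficient replicate 2 or vector replicate 1 or 2 (0.0593 to 0.103).

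Of the 8 subunits of the COG tether, which keeps glycosylation enzymes in place by retrograde traffic within the Golgi, 2 rose and 3 fell in WT, 0 rose and 2 fell in deficient, and 0 rose and 4 fell in mimetic. Cog7 was at 35.9, 41.3 and 35.8 CPM in vector and at 19.3 to 24.4 CPM in every library of the Zeb1 lines, a fall of 1.85-fold in WT (adjusted p = 1.41e-08), 1.75-fold in deficient (7.35e-08) and 1.75-fold in mimetic (8.00e-08). Cog3 was lowest in WT: it was at 50.5, 53.9 and 58.1 CPM in vector, 30.1, 35.4 and 33.4 in WT, 49.3, 52.1 and 48.6 in deficient and 45.3, 42.2 and 42.7 in mimetic. It fell 1.64-fold in WT (adjusted p = 1.38e-08) and was 1.52-fold higher in deficient than in WT (3.63e-07). Cog5 moved the other way, with 26.6, 28 and 26.7 CPM in vector, 36.0, 37.4 and 41.7 in WT, 29.3, 28.8 and 29.7 in deficient and 25.8, 27.3 and 27.1 in mimetic, a rise of 1.41-fold in WT (adjusted p = 1.60e-06). Of all genes tested, 31% rose and 33.6% fell in WT, 28.4% and 29.8% in deficient, and 28.6% and 30.9% in mimetic. Calls in both directions within WT were thus also found over all genes. Cog5 lies on chromosome 12 and Cog3 on chromosome 14, whose all-gene median log2 changes in WT were 0.188 and -0.125. With these medians subtracted, Cog5 was at 0.312 and Cog3 at -0.59. The part of the chromosome was not tested.

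The TRAPP subunits, which act as exchange factors for Rab GTPases, gave more rises than falls in WT, and no rise in either mutant line against WT. In WT against vector 6 of 14 rose and 2 fell, where 31% of all genes rose and 33.6% fell. In deficient against WT and in mimetic against WT 0 rose and 7 fell. Of all genes, 27.5% rose and 26.3% fell in the former, and 23.1% and 21.8% in the latter. Trappc2l, Trappc5 and Trappc11 lie on chromosome 8. Among its genes with at least 5 CPM, 46.2% fell in deficient and 49.3% in mimetic against WT. Trappc6b was at 35.8, 33.3 and 33.5 CPM in vector, 50.4, 47.5 and 51.5 in WT, 41.2, 40.4 and 36.5 in deficient and 43.4, 40.6 and 39.6 in mimetic. It rose 1.45-fold in WT (adjusted p = 3.27e-07), and all 6 mutant libraries lay between the vector and the WT libraries. Trappc4 rose 1.44-fold in WT (adjusted p = 5.40e-06), with 18.2 to 21.4 CPM in vector and 27.7 to 28.5 in WT, and Trappc11 was at 99.5, 101 and 103 CPM in WT against 73.4 to 85.2 in the other 9 libraries. Trappc8 fell 1.36-fold in WT (adjusted p = 3.35e-07), 1.34-fold in deficient (1.07e-06) and 1.27-fold in mimetic (1.27e-05), and Trappc9 fell 1.19-fold, 1.34-fold and 1.47-fold (0.00267, 2.33e-05 and 7.26e-07). Chromosome 18, which carries Trappc8, had an all-gene median log2 change of -0.256, -0.264 and -0.286 in the same order. With that median subtracted, Trappc8 was at -0.19, -0.154 and -0.058. After the same step Trappc9, on chromosome 15, was at -0.255, -0.365 and -0.495. The part of the chromosome was not tested.

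The ARF GTPases recruit coats when loaded with GTP by exchange factors and release them when ARF GAPs stimulate hydrolysis. Arf4 was at 108, 112 and 116 CPM in vector, 151, 151 and 155 in WT, 176, 179 and 168 in deficient and 178, 179 and 170 in mimetic. It rose 1.36-fold in WT (log2 0.44, SE 0.04, adjusted p = 1.46e-08), 1.56-fold in deficient (0.64, SE 0.04, 7.91e-11) and 1.57-fold in mimetic (0.65, SE 0.04, 5.47e-11), and both mutant lines were 1.15-fold above WT (5.33e-04 and 5.05e-04). Arf3 fell 1.48-fold in WT (adjusted p = 1.37e-06), 1.41-fold in deficient (1.06e-05) and 1.41-fold in mimetic (1.12e-05). Arf2 was low in WT, at 20.0 to 22.5 CPM against 28 to 35.4 CPM in the other 9 libraries, and deficient was 1.54-fold above WT (adjusted p = 8.21e-07). Arf1 and Arf6, the most abundant, differed from vector by at most 1.08-fold in any Zeb1 line, and the sum over the 6 GTPases was 1210 ± 27.3, 1203 ± 6.67, 1215 ± 11.6 and 1216 ± 2.98 CPM in the vector, WT, deficient and mimetic lines (SD, n = 3).

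Among their regulators, Arfgap3, a GAP of COPI vesicles, was at 64.7, 65.5 and 67.7 CPM in vector, 35.3, 34.5 and 34.3 in WT, 41.5, 40.7 and 40.7 in deficient and 38.9, 39.8 and 38.9 in mimetic. No 2 lines overlapped. It fell 1.90-fold in WT (log2 -0.93, SE 0.05, adjusted p = 3.95e-12), 1.61-fold in deficient (-0.69, SE 0.05, 6.43e-10) and 1.68-fold in mimetic (-0.75, SE 0.05, 1.61e-10). The exchange factors of the trans-Golgi also fell, Arfgef1 by 1.47-fold, 1.39-fold and 1.24-fold (adjusted p = 2.65e-06, 2.32e-05 and 0.00185) and Arfgef2 by 1.20-fold, 1.28-fold and 1.33-fold (0.00195, 1.10e-04 and 2.41e-05), in WT, deficient and mimetic in turn. For Arfgef1, vector replicate 3 (127 CPM) lay below mimetic replicate 3 (130 CPM), so vector and mimetic overlapped. Its chromosome 1 had an all-gene median log2 change of -0.211 in WT, and -0.35 was left after subtraction. The part of the chromosome was not tested. Gbf1, the exchange factor of the cis-Golgi, fell in mimetic alone among the 3 comparisons with vector (1.16-fold, adjusted p = 0.00189). In WT Gbf1 was at 78.8 to 81.5 CPM and in vector at 77.1 to 87.4.

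The lipid-binding Sec14-like genes enter by name and are not known as coat components. Sec14l1 was at 151, 144 and 141 CPM in vector, 87.3, 85.3 and 84.9 in WT, 90.7, 95.3 and 104 in deficient and 109, 105 and 112 in mimetic, without overlap between any 2 lines. Sec14l2, also known as tocopherol-associated protein, was lowest in WT, at 3.09, 2.72 and 3.74 CPM against 4.78, 5.90 and 6.81 in vector, 6.42, 6.37 and 6.74 in deficient and 5.62, 5.71 and 4.99 in mimetic. It fell 1.85-fold in WT (adjusted p = 4.76e-05), and deficient was 2.06-fold (1.16e-05) and mimetic 1.72-fold (5.00e-04) above WT.

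Where a complex or step is served by paralogs, the share of each paralog in the family's counts was compared over the 4 lines by an exact permutation test of the between-line F statistic (15400 partitions, smallest possible p = 6.49e-05). Of 19 shares, 14 had a Benjamini-Hochberg adjusted p under 0.05. This count was 9 when WT replicate 2 or mimetic replicate 1 was left out. The Sec23a share of Sec23a plus Sec23b was 46.4% ± 0.493, 59.3% ± 0.962, 51.4% ± 0.731 and 52.9% ± 0.511 in the vector, WT, deficient and mimetic lines (SD, n = 3), with no overlap between lines (adjusted p = 0.00123, exact permutation). The Golph3 share was 78.0% ± 1.22, 84.5% ± 0.400, 84.0% ± 0.909 and 81.1% ± 0.769 in the same order (SD, n = 3, adjusted p = 0.00247, exact permutation). The Arfgap3 share of its family was 40.4% ± 0.929, 27.5% ± 0.324, 29.6% ± 1.16 and 29.7% ± 1.13 in that order (SD, n = 3, adjusted p = 0.00388, exact permutation). The Sec22b share was 60.9% in vector and 61.3% in WT against 68.0% in deficient and 66.9% in mimetic (adjusted p = 0.0107, exact permutation). The shares of Copg1, Sec31a, Sec22c, Sec61a1 and Sec11a did not pass the threshold (adjusted p = 0.109 to 0.141, exact permutation), and their line means spanned 0.137 to 4.94 percentage points.

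**Figure D4:**
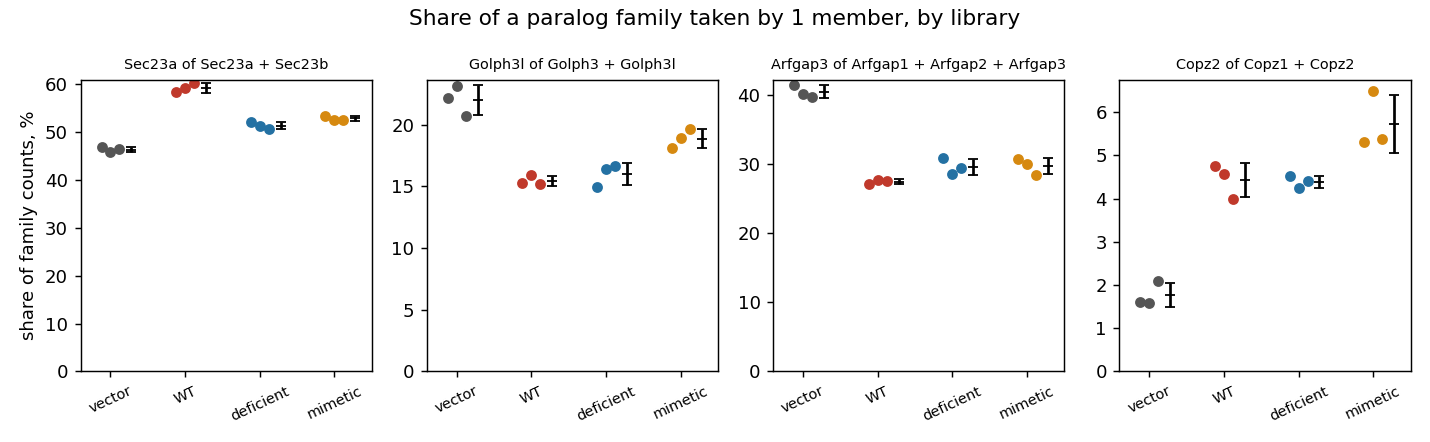
Share of a paralog family's counts taken by Sec23a, Golph3l, Arfgap3 and Copz2 in each library (points, coloured by line), with mean and SD per line (bars); axes start at 0. The Sec23a share is highest in WT, the Golph3l and Arfgap3 shares are highest in vector, and the Copz2 share is lowest in vector.

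The direct comparison of the 2 mutant forms called 11 members. Sec24b, Tmed3 and Sec14l1 were higher in mimetic, and Cog3, Copg1, Sec23b, Sec11c, Sec61a1, Golga4, Golga7b and Golph3 were lower. Sec24b was at 39.5, 40.5 and 46.4 CPM in deficient and 49.6, 50.1 and 57.2 in mimetic, 1.24-fold higher (adjusted p = 0.0196). Copg1 was 1.14-fold lower in mimetic (adjusted p = 0.00419), with all 3 mimetic libraries below the other 9. Copg1 and Sec61a1 lie on chromosome 6, whose all-gene median log2 change was -0.098 in this comparison. With that median subtracted they were at -0.091 and -0.01. Only 4 of the 11 calls, Tmed3, Copg1, Sec23b and Golga4, were kept under every other test, scaling, filter, choice of samples and left-out library run; a minimum log2 change of 0.32 would leave 1 higher (Tmed3) and 1 lower (Golga7b). The calls of Cog3, Golga7b, Golph3, Sec11c, Sec14l1, Sec24b and Sec61a1 were lost in at least 1, with adjusted p reaching 0.117, 0.159, 0.182, 0.0741, 0.106, 0.103 and 0.11. With 1 library left out the number of members higher ranged from 1 (without deficient replicate 2 or mimetic replicate 3) to 5 (without deficient replicate 3), and the number lower from 4 (without deficient replicate 1 or mimetic replicate 1) to 8, with 5 without deficient replicate 2, mimetic replicate 2 or mimetic replicate 3. Without TMM factors 8 were higher and 5 lower.

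Coding length, which the choice of genes did not use, varied with the calls against vector. Of 27 members with at least 2400 coding bases, 5 rose and 16 fell in WT, 1 rose and 16 fell in deficient, and 1 rose and 18 fell in mimetic. Of 39 members with under 1200 coding bases, 13 rose and 14 fell, 11 rose and 13 fell, and 12 rose and 15 fell in the same order. Over all genes tested, 46.5, 44.4 and 44.8% of 2643 genes with at least 2400 coding bases fell and 22.5, 20.2 and 19.6% rose. Of 4881 genes with under 1200 coding bases, 26.5, 22.1 and 22.7% fell and 37.3, 33.8 and 35.1% rose. Across genes, Spearman's rho between coding length and log2 fold change was -0.32, -0.31 and -0.36 over the 87 members, and -0.17, -0.17 and -0.19 over 11947 genes; genes are not independent replicates and the points share the same libraries. Vector replicate 3 was below the other vector libraries for several long genes (129 against 154 and 148 CPM for Golgb1, 127 against 159 and 173 for Arfgef1), yet above every library of the Zeb1 lines for Golgb1. Without that library the log2 change of Golgb1 was -1.13 in WT, -0.87 in deficient and -0.94 in mimetic. The part of coding length in the falls was not tested.

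**Figure D5:**
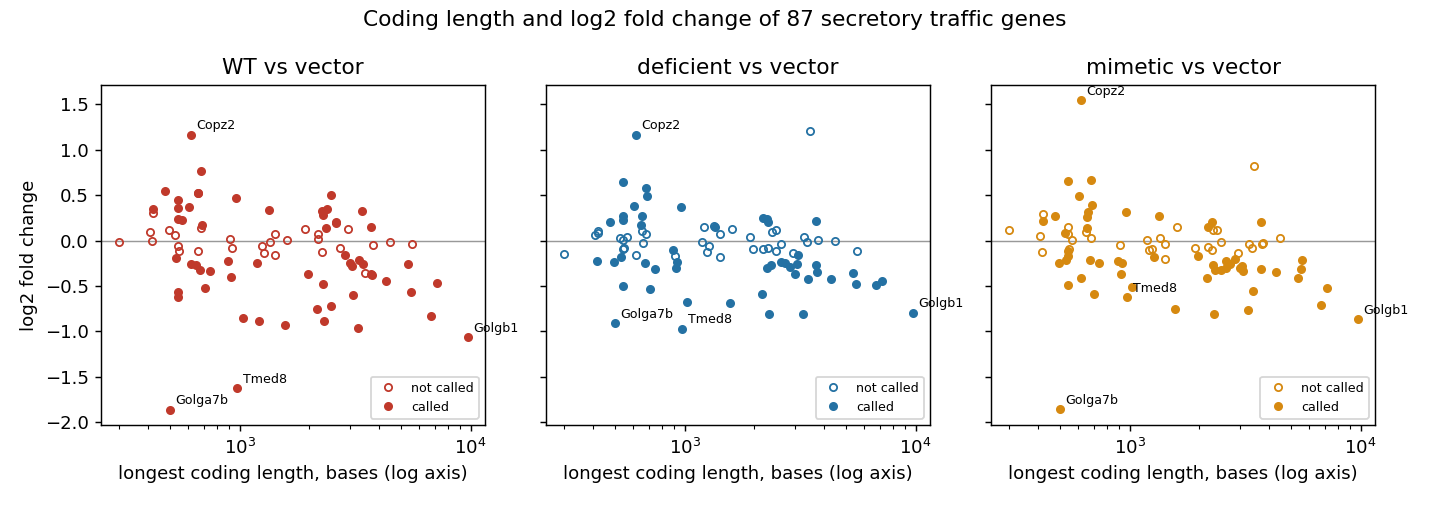
Log2 fold change of the 87 members against vector (vertical axis) by the length of the longest annotated coding sequence (horizontal log axis, bases), for WT, deficient and mimetic; filled points were called. Points at the long end lie mostly below 0, with Golgb1 the longest, while Copz2, Golga7b and Tmed8 have short coding sequences and large changes.

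Chromosome also moved with the calls. In WT against vector, 31 members lay on the 7 chromosomes (1, 3, 7, 11, 14, 16 and 18) whose genes had a median log2 fold change under -0.1 (over genes with at least 5 CPM), and 2 of them rose and 23 fell; of all genes there 16.2% rose and 53.2% fell. On the 6 chromosomes with a median over 0.1 (4, 5, 6, 12, 17 and 19), 13 of 22 members rose and 2 fell, where 50.4% of all genes rose and 19.9% fell. In mimetic against WT, 10 of 16 members on chromosomes 6, 8 and 19 fell and 0 rose (53.9% and 6.4% of all genes there). On chromosomes 1, 3, 5 and 14, 11 of 15 members rose and 0 fell (51.2% and 7.1% of all genes there). In deficient against WT, 6 of 14 members on chromosomes 6, 8 and X fell and 0 rose (44.3% and 17.3% of all genes there). On 1, 3, 5 and 14, 10 of 15 members rose and 0 fell (49.7% and 11.4% of all genes there). Chromosome 8 carries Cog2, Cog4, Cog8, Trappc2l, Trappc5, Trappc11, Cope and Golga7, whose median was -0.19 in mimetic against WT where all genes of that chromosome had -0.16. Trappc6b, Cog5 and Tmed8 lie on chromosome 12, whose all-gene median log2 change was 0.188 in WT against vector. With that median subtracted, they were at 0.353, 0.312 and -1.809. Among the changes of 1.5-fold or more in WT against vector, the chromosome median was -0.22 for Golgb1 (chromosome 16), 0.09 for Golga4 (9), 0 for Arfgap3 (15), -0.23 for Cog7 (7) and -0.11 for Copz2 and Sec24a (11). Sec24d, on chromosome 3, had log2 -0.59, of which the chromosome's median was -0.19. Cog3, on chromosome 14, was log2 0.60 higher in deficient than in WT, where the chromosome's median was 0.25. For Arf4 on chromosome 14, the excess of deficient over WT (log2 0.20) was no larger than the chromosome's median of 0.25. After subtraction of each chromosome's median, the median of the 87 members was -0.08 in WT, -0.05 in deficient and -0.06 in mimetic against vector. The part of chromosome in the calls was not tested.

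Promoter windows from RefSeq (GRCm38.p6, 250 bases before to 50 after a transcript start) were found for 74 of the 87 members and searched on both strands for CAGGTG, the E-box that ZEB proteins bind (CACCTG on the other strand). Of these genes 21.6% (16 of 74) held the motif in at least 1 window, against 22.6% of 27025 genes in the table. Among the 18 members that changed 1.5-fold or more in any comparison, 16 had a window and 6 held the motif. Of these, Copz2 and Tmed1 rose and Tmed9 fell in all Zeb1 lines. Arf2, Sec14l2 and Sec24d fell by 1.5-fold or more against vector in WT alone, and Sec24d also fell, by less, in mimetic. A match says only that these letters are present. The stretches below, in the direction of transcription and ending at the last base before the annotated gene, are shown because they belong to members that changed in opposite directions in WT; the motif is in capitals, and it begins 194 and 250 bases before the RefSeq start. They lie at chr11:96849626-96849869 (plus strand) and chr3:123267246-123267454 (plus strand).
Copz2: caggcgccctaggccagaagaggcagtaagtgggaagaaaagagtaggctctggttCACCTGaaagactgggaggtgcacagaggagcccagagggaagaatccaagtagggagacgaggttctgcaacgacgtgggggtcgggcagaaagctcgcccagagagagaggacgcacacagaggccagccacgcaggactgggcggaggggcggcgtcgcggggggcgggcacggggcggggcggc
Sec24d: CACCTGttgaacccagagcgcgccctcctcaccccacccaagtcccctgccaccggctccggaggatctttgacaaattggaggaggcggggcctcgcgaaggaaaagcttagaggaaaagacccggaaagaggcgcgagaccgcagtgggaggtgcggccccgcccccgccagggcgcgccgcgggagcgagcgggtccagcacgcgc

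Genes of the same pathway outside the set moved in both directions. For comparison, 31% of all genes tested rose and 33.6% fell in WT, 28.4% and 29.8% in deficient, and 28.6% and 30.9% in mimetic. Of 21 other coat and cargo genes, 11 rose and 6 fell in WT, 10 rose and 6 fell in deficient, and 11 rose and 7 fell in mimetic against vector. Kdelr3, a receptor that returns ER residents, went from 5.81 ± 0.753 CPM with vector to 12.8 ± 0.661, 13.9 ± 0.822 and 11.5 ± 0.740 CPM with WT, deficient and mimetic Zeb1 (SD, n = 3). Of 21 ER-Golgi SNAREs and tethers 6 rose and 6 fell in WT, 9 and 5 in deficient, and 8 and 5 in mimetic, with Bet1, a SNARE of ER-derived vesicles, falling 1.44-fold, 1.87-fold and 1.75-fold (adjusted p = 2.06e-05, 2.80e-08 and 1.21e-07). Of 38 trans-Golgi and Golgi ribbon genes 11 rose and 15 fell in WT, 13 and 11 in deficient, and 10 and 15 in mimetic. Golm1, a Golgi membrane protein of epithelial cells, fell from 279 ± 2.70 CPM with vector to 119 ± 3.36, 147 ± 2.68 and 139 ± 3.74 CPM with WT, deficient and mimetic Zeb1 (SD, n = 3). Of 6 regulators in a list of CREB3 family members with Xbp1, Atf6 and Klf4, 1 rose (Klf4) and 1 fell (Xbp1) in WT, neither of them a CREB3 family member; 2 rose and 1 fell in deficient, and 1 rose and 3 fell in mimetic. In mimetic against deficient, these 4 lists gave 2 higher and 3 lower, 0 and 3, 3 and 6, and 1 and 3. Of all genes, 12.6% were higher and 14.9% lower in that comparison.

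The 3′ ends of Arfgap2, Arf4, Cog5, Cog8, Copg2, Sec11a, Sec61a1, Sec61a2, Gorasp1, Gorasp2, Tmed1, Tmed5 and Tmed7 overlap exons of another annotated gene. How strand and multiply mapped reads were counted is not given in the sources used here, so the values of these 13 members are uncertain. Of the 45 calls of 1.5-fold or more over the 6 comparisons, 42 were kept under every other test, scaling, filter, choice of samples and left-out library run, and the other 3 are those of Golga7b (deficient against WT, mimetic against deficient) and Sec31b (deficient against WT).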

How the data were processed

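Total RNA was made into 12 QuantSeq 3′ FWD libraries (3 for each of 4 lines), per the labels' protocols. The deposited values are raw counts per gene, which the authors made with the aligner STAR and the build mm10, as named in the submitters' processing notes; for the counting tool, annotation, strand setting and versions, nothing is stated in the sources used here. Each gene in the table has at least 1 count in every library, and other genes were not analysed here. The labels call the libraries biological replicates without saying that cultures were grown separately, so p-values measure the spread between these libraries, which may be technical.

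Counts were filtered with filterByExpr, scaled by TMM and fitted by edgeR 4.0.16's quasi-likelihood test (R 4.3.3) over all 12 libraries with a term for line, giving 6 comparisons with Benjamini-Hochberg adjustment over all genes tested. Alternatives were DESeq2 1.42.0, limma 3.58.1 with voom, other scaling and filters, a minimum log2 change of 0.32, a fit restricted to the lines compared, a replicate block, and each library left out. Paralog shares were tested by exact permutation over libraries, and the scripts were tested on simulated data. Members and gene lists were chosen with earlier results of these data known. Genes named were up to 2 per role with the smallest adjusted p in each comparison, every member called at 1.5-fold or more, the paralog families, and up to 2 genes of each outside list; other genes were chosen after their values were seen. Chromosome medians and coding length were described without a test.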

Additional observations from a re-analysis of the deposited data

How the results depend on the processing

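Of 321 fold changes of named genes over the 6 comparisons, none changed sign past the threshold and 269 kept their side of it under every other test, scaling, filter, choice of samples, block and left-out library (the minimum change below was applied to counts only), 27 lost a call in at least 1 and 25 gained one. Of the 258 calls of members, DESeq2 kept 252, limma-voom 255 and scaling by library size only, without TMM factors, 237. Requiring a log2 change of at least 0.32 left 15 members higher in WT against vector, 6 higher and 18 lower in deficient against vector, 5 higher and 18 lower in mimetic against vector, 1 higher and 1 lower in mimetic against deficient, 9 higher and 6 lower in mimetic against WT, and 10 higher and 7 lower in deficient against WT, since small changes are then not counted. The number lower in WT against vector at that cut is not given here. At 1.5-fold or more, 2 members rose and 13 fell in that comparison. In mimetic against deficient, omitting the TMM factors turned the balance to 8 higher and 5 lower, and a fit of only the 2 lines gave 5 higher; in mimetic against WT, omitting the TMM factors gave 12 lower. The cause was not tested. With 1 library left out, members called in mimetic against deficient numbered 1 to 5 higher and 4 to 8 lower, and paralog shares past the threshold numbered 9 to 14. Libraries with the same replicate number did not deviate together (correlations of -0.085 to 0.132 over 18 pairs), so the numbers were not taken as pairs. With the replicate block, members called in mimetic against deficient were 4 higher and 8 lower, in mimetic against WT 21 higher and 21 lower and in deficient against WT 24 higher and 19 lower; 256 of 258 calls were kept. Genes of low level, such as Sec31b and Golga7b, were limited by counts.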
